A study of Mus musculus with 4 samples.

Results

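The brown and beige thermogenic genes described here are Ucp1, Cidea, Elovl3, Dio2, Prdm16, Ppargc1a, Ppara, Cox7a1, Cox8b and Tbx1, chosen by symbol. All 10 matched 1 row each of the 17335 genes in the expression table of the study. RNA-seq was performed on gonadal white adipose tissue (gWAT) of female mice fed a high-fat diet (HFD, 60% of calories from fat) for 18 weeks. The fl/fl group carried Dnmt1 alleles flanked by loxP sites and no Cre, and the AD1KO group were littermates in which Cre driven by the adiponectin promoter deletes Dnmt1 in adipocytes. Dnmt1 therefore stays intact in the macrophages, vessels and stroma of AD1KO fat. Equal amounts of RNA from 4 animals were pooled per group, which gave 1 library each. A difference between the libraries has no replicate check, and no p-value can be given.

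Brown and beige adipocytes burn fat to release heat, mainly through UCP1, a carrier of the inner mitochondrial membrane that lets protons return without making ATP. Noradrenaline from sympathetic nerves acts on beta-adrenergic receptors, raises cAMP and switches on Ucp1, Dio2 and the coactivator PGC-1 alpha, while PRDM16 keeps the brown fat gene programme on. Gonadal fat of the mouse is a white depot that forms beige cells less readily than subcutaneous fat.

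Levels are given as FPKM, fragments per kilobase of transcript scaled to library size, as the authors deposited them. Each ratio is a log2 ratio with AD1KO as numerator, after 0.01 was added to both FPKM values. A gene counted as higher or lower when this ratio was at least 0.5 in size, the fold used in the study's methods, and genes at 0.1 FPKM or more in 1 library were tested against it. Reads per gene were estimated from the steps between low FPKM values, which gave depths near 17650000 (fl/fl) and 17440000 (AD1KO) reads. The 95% intervals are exact counting intervals on these reads, and they say nothing of the spread between animals. As a check of the labels, Dnmt1 was at 6.99 FPKM in the fl/fl pool and 3.33 in the AD1KO pool, about 2.10-fold lower.

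All 10 thermogenic genes reached 0.1 FPKM in at least 1 library. In AD1KO, 4 were higher (Elovl3, Tbx1, Dio2 and Ppara), 2 were lower (Ucp1 and Cidea) and 4 were neither (Cox8b, Prdm16, Cox7a1 and Ppargc1a). Among all 15839 genes tested, 14.3% were higher and 19.1% lower by the same rule. The whole counting interval lay past the fold for 1 higher gene, Elovl3, and 1 lower gene, Ucp1, where the shares of all tested genes were 4.19% and 8.28%. The median ratio of the 10 genes was 0.27, and that of all tested genes was -0.04. The ratios lay on both sides of 0, from -2.60 for Ucp1 to 1.43 for Elovl3. Since gWAT is a mixture, fewer cells of a type and less RNA per cell cannot be told apart in any of these values.

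**Figure D1:**
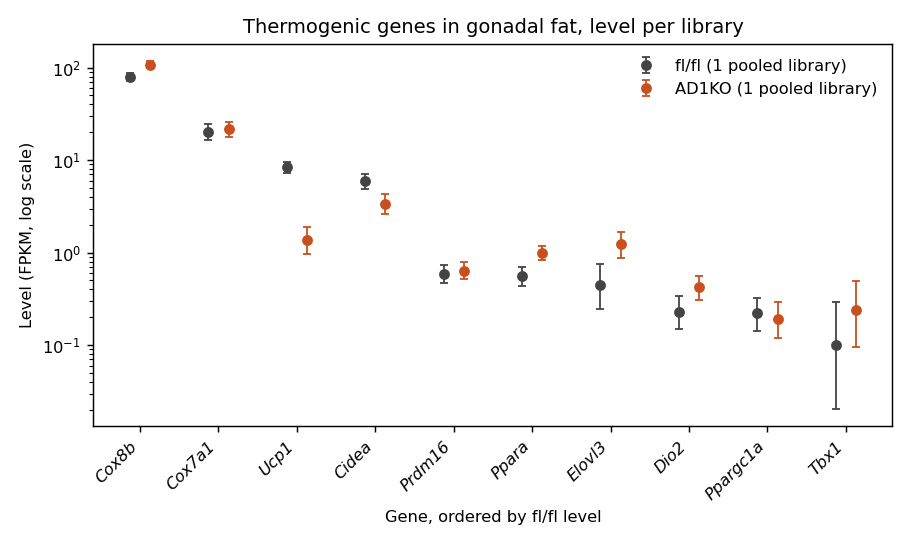
Level of each thermogenic gene in gonadal fat (vertical axis, FPKM on a log scale) in the fl/fl (grey) and AD1KO (orange) libraries, with 1 pooled library per group and bars for 95% Poisson counting intervals. Ucp1 lies at 8.39 in fl/fl and 1.38 in AD1KO, while Cox8b and Cox7a1 are the most abundant of the 10 genes in both libraries.

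The genes spanned a wide range of levels. In fl/fl, Cox8b (79.54 FPKM), Cox7a1 (20.30), Ucp1 (8.39) and Cidea (5.88) stood above the other 6 genes, and the 95% counting intervals of these 4 did not overlap those of their neighbours. The remaining 6 genes lay between 0.10 and 0.59 FPKM, and no gene among them was set apart from the next by its interval. In AD1KO, Cidea at 3.38 FPKM stood above Ucp1 at 1.38, so that these genes changed places. The intervals of Ucp1, Elovl3 and Ppara overlapped from one to the next in AD1KO, at 1.38, 1.23 and 1.00 FPKM. Only Cox8b, Cox7a1, Ucp1 and Cidea exceeded 1 FPKM in both libraries, and Tbx1 had 10 reads over both.

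The upstream sequences of these genes differ in how many CpG dinucleotides they hold, the sites that DNMT1 methylates. RefSeq promoter windows of mouse build GRCm38.p6 matched 8 of the 10 genes. The windows of Cidea and Elovl3 were not used here. Expression was aligned to the older build mm9, so gene positions given further on do not share coordinates with these windows. Over the 250 bases before the annotated start, all 32851 mouse windows had a median of 6 CpG. The following 3 windows are printed 5′ to 3′ with each CpG in capitals, to show the window of the gene with the lowest ratio, the CpG-richest window and the CpG-poorest.

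Ucp1, chr8:83290098-83290347, plus strand: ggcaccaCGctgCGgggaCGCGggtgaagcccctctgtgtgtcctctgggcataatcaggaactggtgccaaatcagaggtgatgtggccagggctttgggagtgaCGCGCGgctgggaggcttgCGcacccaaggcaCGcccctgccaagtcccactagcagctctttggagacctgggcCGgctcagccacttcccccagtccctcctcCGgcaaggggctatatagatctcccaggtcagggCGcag

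Ppara, chr15:85735526-85735775, plus strand: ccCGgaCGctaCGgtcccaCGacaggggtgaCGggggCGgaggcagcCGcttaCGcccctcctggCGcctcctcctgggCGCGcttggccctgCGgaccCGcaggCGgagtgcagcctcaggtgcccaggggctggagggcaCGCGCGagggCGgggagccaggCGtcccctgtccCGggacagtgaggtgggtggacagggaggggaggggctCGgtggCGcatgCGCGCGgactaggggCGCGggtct

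Cox8b, chr7:140900447-140900696, minus strand: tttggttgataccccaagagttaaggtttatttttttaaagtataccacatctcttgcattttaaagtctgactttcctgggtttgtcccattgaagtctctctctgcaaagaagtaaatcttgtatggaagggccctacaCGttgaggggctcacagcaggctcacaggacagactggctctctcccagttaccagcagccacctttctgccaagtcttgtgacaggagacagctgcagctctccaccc

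The Ucp1 window held 12 CpG, and 33.5% of all windows held as many or more. The Ppara window held 27, a number that 8.56% of windows reached, and the Cox8b window held 1. Between these came Prdm16 with 22, Tbx1 with 17 and 10 at its 2 annotated starts, Ppargc1a with 5, Cox7a1 with 4 and Dio2 with 2. Higher genes included Ppara, the CpG-richest, and Dio2 with 2, and the genes past neither fold included Prdm16 and Cox8b. Methylation of these windows was not analysed here.

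Dio2 alone among the 8 carried the full cAMP response element TGACGTCA, which 1.55% of all windows hold on either strand. Its window is shown with this element in capitals, 95 bases before the annotated start, because cAMP is the signal that turns on thermogenic genes.

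Dio2, chr12:90739039-90739288, minus strand: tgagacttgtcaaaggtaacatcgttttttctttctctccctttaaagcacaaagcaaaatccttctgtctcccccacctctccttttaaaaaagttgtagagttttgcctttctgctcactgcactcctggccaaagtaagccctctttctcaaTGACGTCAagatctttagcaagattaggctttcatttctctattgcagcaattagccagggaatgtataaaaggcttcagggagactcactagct

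The shorter form TGACG, searched on both strands, was found in 17.8% of all windows and in those of Ucp1, Ppara, Ppargc1a, Dio2 (where it lies within the full element) and 1 of the 2 of Tbx1. The nuclear receptor motif AGGTCA was found in 14.0% of all windows and in the window of Ucp1 only among the 8. A match is a description of letters in the window and does not show that a factor binds there.

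Ucp1 (gene 22227, chromosome 8 of mm9, 85814247 to 85822355, plus strand), the uncoupling protein itself, was at 8.39 FPKM in the fl/fl pool and 1.38 in the AD1KO pool, from about 226 and 37 reads. The AD1KO level was 6.04-fold lower, with a log2 ratio of -2.60 (interval -3.14 to -2.09). Only 1.84% of tested genes had a ratio as low. The other carriers named after UCP1 differ in tissue and do not share its main role in brown fat heat. Ucp2, which macrophages express strongly, was at 998 FPKM in the fl/fl pool and 625 in the AD1KO pool, with a ratio of -0.68. Ucp3, the muscle and fat relative, was at 5.76 and 8.95 FPKM, a ratio of 0.63 in the opposite direction to Ucp1. The more distant Slc25a27 and Slc25a14 lay at 0.46 and -0.43, short of the fold, and both intervals held 0. Per unit of Ucp2, the level of Ucp1 was 0.841% in fl/fl and 0.221% in AD1KO.

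Lhx8, a marker of the classical brown fat lineage, had about 1 read in each library. Kcnk3, a potassium channel abundant in brown fat and also present in white fat, was higher in AD1KO at 14.68 and 23.26 FPKM (ratio 0.66), the reverse of Ucp1. Markers of reproductive tract epithelium, a tissue that lies against this depot in females, were lower for 4 of 7 genes and below 0 for 5. Among them Ovgp1, the oviduct glycoprotein, had about 149 and 7 reads, and the list summed to 19.45 and 13.59 FPKM. Wfdc2 had about 38 and 4 reads, Pax8 11 and 0, and Cdh1 18 and 6. Krt8, a keratin of simple epithelia, was the most abundant gene of the list in AD1KO at 6.42 FPKM and had a ratio of 0.27. Krt18 was the most abundant in fl/fl at 5.72 FPKM and had a ratio of 0.05. Of 6 sympathetic nerve markers only 3 were tested, since Th and Dbh had no row with their symbol and Snap25 was below 0.1 FPKM. Npy (ratio -1.64) and Uchl1 (-0.79) were lower, and Slc18a2 lay at -0.43 with an interval that held 0. The 4 markers found summed to 16.34 and 7.78 FPKM, and the fall rests on Npy and Uchl1. Which cells the reads of these nerve markers came from was not tested. The part of the epithelial or the nerve markers in the lower Ucp1 was not tested either.

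Cidea (gene 12683, chromosome 18, 67503218 to 67527448, plus strand), a lipid droplet protein abundant in brown fat, was at 5.88 FPKM in the fl/fl pool and 3.38 in the AD1KO pool, from about 109 and 62 reads. Its ratio was -0.80, with an interval from -1.27 to -0.33 that stays below 0 but reaches across the fold. Its white fat relative Cidec, which enlarges lipid droplets, went the other way, at 1487 and 2885 FPKM with a ratio of 0.96. Cideb, the liver member of the family, was at 0.44 and 1.16 FPKM (ratio 1.38, interval 0.255 to 2.85, 30 reads). Of the 3 related genes Cidea alone was lower, and its level per unit of Cidec was 0.395% in fl/fl and 0.117% in AD1KO. Cidec is also 1 of the 12 adipocyte markers described further on, all with ratios above 0.

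Elovl3 (gene 12686, chromosome 19, 46206387 to 46210184, plus strand), an elongase of very long chain fatty acids that cold induces in brown fat, was at 0.45 FPKM in the fl/fl pool and 1.23 in the AD1KO pool. About 14 and 38 reads lay behind these values, and the ratio of 1.43 had an interval from 0.54 to 2.46. Of all tested genes, 3.18% had a ratio as high. The more abundant elongases lay within the fold, with Elovl1 at -0.31, Elovl5 at 0.31 and Elovl6, which extends palmitate in lipogenic tissue, at 0.08. Elovl2 (ratio 0.85), Elovl4 (0.31 and 0.15 FPKM) and Elovl7 (ratio 0.46) were measured each from under 30 reads and with an interval that held 0. Per unit of Elovl6, the level of Elovl3 was 12.3% in fl/fl and 31.8% in AD1KO.

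Dio2 (gene 13371, chromosome 12, 91962994 to 91976878, minus strand), the deiodinase that makes active thyroid hormone inside brown adipocytes, was at 0.23 FPKM in the fl/fl pool and 0.42 in the AD1KO pool. Its ratio of 0.84, from about 26 and 46 reads, had an interval from 0.12 to 1.59. Dio1 and Dio3, the activating enzyme of liver and the inactivating enzyme, had ratios of 1.07 and 0.82 from 16 and 14 reads, and both intervals held 0. All 3 deiodinases were therefore past the fold at levels of 0.42 FPKM or less, and the interval excluded 0 for Dio2 alone.

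**Figure D2:**
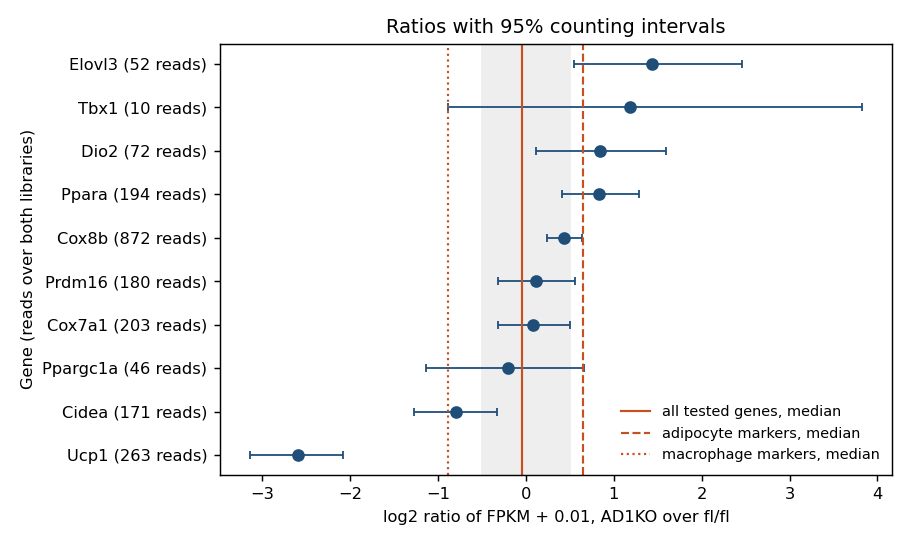
Log2 ratio of AD1KO over fl/fl (horizontal axis) for each thermogenic gene (vertical axis, with its reads over both libraries), with 95% counting intervals. The grey band marks ratios within 0.5 of 0, and vertical lines give the medians of all tested genes (-0.04), adipocyte markers (0.65) and macrophage markers (-0.89). Ucp1 and Elovl3 have intervals that lie wholly past the band, and Tbx1 with 10 reads has the widest interval.

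The transcriptional regulators did not share a direction. Prdm16 (gene 70673, chromosome 4, 153690234 to 154010982, minus strand), which drives the brown fat fate, was at 0.59 FPKM in the fl/fl pool and 0.64 in the AD1KO pool. About 87 and 93 reads gave a ratio of 0.12 (interval -0.32 to 0.55). Its close relative Mecom was at 0.92 and 1.88 FPKM, a ratio of 1.02 (interval 0.56 to 1.51).

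Ppargc1a (gene 19017, chromosome 5, 51845488 to 51958964, minus strand) encodes PGC-1 alpha, the coactivator that raises mitochondrial number and Ucp1 transcription. It was at 0.22 FPKM in the fl/fl pool and 0.19 in the AD1KO pool, from about 25 and 21 reads. The interval of its ratio, -0.20, was -1.14 to 0.66, and a difference within these bounds was not detectable at this depth. Its relatives Ppargc1b (1.23 and 0.90 FPKM, ratio -0.45) and Pprc1 (4.46 and 3.88 FPKM, ratio -0.20) also lay below 0, and both intervals held 0. Thus 0 of 3 coactivators of this family was past the fold.

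Ppara (gene 19013, chromosome 15, 85565413 to 85633249, plus strand), the nuclear receptor that turns on fatty acid oxidation, was at 0.56 FPKM in the fl/fl pool and 1.00 in the AD1KO pool. From about 70 and 124 reads its ratio was 0.83, with an interval from 0.41 to 1.29. Pparg, the master regulator of adipocytes, was at 84.94 and 109.93 FPKM (ratio 0.37), and Ppard was at 12.01 and 11.90 (ratio -0.01). Of 14 genes listed as targets of PPAR alpha, 6 were higher and 0 lower, with a median of 0.38 that became -0.27 relative to the adipocyte markers described further on. The list holds Aco1, an aconitase that is no established target and lay within the fold at 0.31. Ehhadh, a peroxisomal oxidation enzyme, had the highest ratio at 1.25 (6.88 and 16.35 FPKM), and Angptl4, an inhibitor of lipoprotein lipase, was the most abundant at 435 and 553 FPKM. Acot1 had the lowest ratio, -0.44, from 67 reads, and its interval held 0.

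Cox7a1 and Cox8b encode the heart and muscle isoforms of 2 subunits of cytochrome c oxidase, the last complex of the respiratory chain, which brown fat also uses. Cox7a1 (gene 12865, chromosome 7, 30969190 to 30971047, plus strand) was at 20.30 FPKM in the fl/fl pool and 21.51 in the AD1KO pool, a ratio of 0.08 (interval -0.32 to 0.50). Cox8b (gene 12869, chromosome 7, 148084842 to 148086345, minus strand) had 79.54 and 107.46 FPKM, or about 373 and 499 reads. Its ratio of 0.43 (interval 0.24 to 0.63) lay above 0 but short of the fold. The transcripts are 393 and 383 bases long, so their FPKM depends on the length correction of the software more than that of longer genes, but equally in both libraries.

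The ubiquitous counterparts of these subunits were far more abundant. Cox7a2 was at 214 and 219 FPKM (ratio 0.03), and Cox8a was at 837 and 967 (ratio 0.21). Cox7a1 amounted to 9.48% of Cox7a2 in fl/fl and 9.82% in AD1KO, and Cox8b to 9.51% and 11.1% of Cox8a. The other tissue-restricted isoforms were Cox6a2, at 5.35 and 5.34 FPKM, and Cox4i2, with a ratio of 0.16. Their counterparts Cox6a1 and Cox4i1 had ratios of 0.26 and -0.02. None of the 8 genes was past the fold. Skeletal muscle markers summed to 102.85 FPKM in fl/fl and 103.58 in AD1KO. Of 10 tested, 4 were higher and 3 lower with a median of 0.18. Most of the sum came from Acta1, the skeletal muscle actin, at 41.88 and 39.70 FPKM, Myl1, a myosin light chain, at 29.04 and 39.40 (ratio 0.44) and Pvalb, the calcium buffer parvalbumin, at 26.62 and 19.10 (ratio -0.48). At lower levels Tnnc2 had the highest ratio, 1.76 from 22 reads, and Mylpf the lowest, -1.48 from 16. Ckm, the muscle creatine kinase, had about 3 and 5 reads. The myosin heavy chains Myh1, Myh2 and Myh4 were below 0.1 FPKM in both libraries, with 5, 4 and 5 reads over both. The part of muscle RNA in the levels of Cox7a1 and Cox8b was not tested.

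Tbx1 (gene 21380, chromosome 16, 18581806 to 18588113, minus strand), a T-box factor used as a marker of beige cells, was at 0.10 FPKM in the fl/fl pool and 0.24 in the AD1KO pool. These values rest on about 3 and 7 reads, and the interval of the ratio, 1.18, was -0.89 to 3.82, with no difference detectable at this depth. Other T-box genes differed in direction. Tbx3 was at 1.57 and 2.16 FPKM (ratio 0.46) and Tbx18 at 1.00 and 0.62 (ratio -0.68). Tbx2 lay at 0.07 with an interval that held 0. Tbx15, a marker of body position in fat and skin, had about 7 reads in the fl/fl pool and was listed at 0 in the AD1KO pool. Against a floor of 3 reads this is 2.31-fold lower, and the counting interval of its ratio reached up to -0.51.

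**Figure D3:**
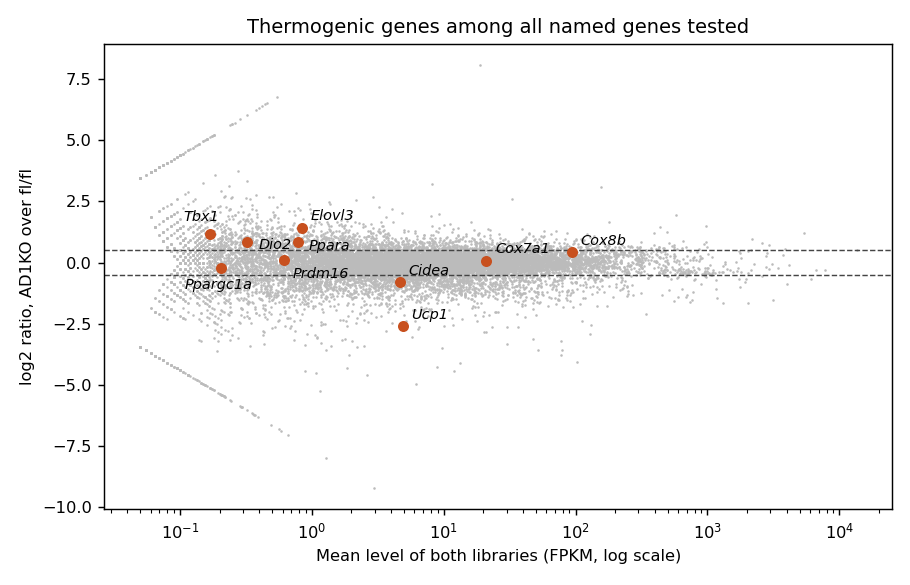
Log2 ratio of AD1KO over fl/fl (vertical axis) against mean level of both libraries (horizontal axis, FPKM on a log scale) for all tested genes with a symbol (grey) and the thermogenic genes (orange). Dashed lines mark ratios of -0.5 and 0.5, and Ucp1 lies apart from the other thermogenic genes at -2.60.

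Markers of the cell types in fat also differed between the libraries. All 12 adipocyte markers had ratios above 0, of which 10 were past the fold, with a median of 0.65. Cfd, a complement protease secreted by adipocytes, had the highest ratio of them (511 and 1441 FPKM) and Acsl1 the lowest, 0.46, while Fabp4 was the most abundant (ratio 0.51). Their summed level was 18077 FPKM in fl/fl and 28147 in AD1KO. Of 12 macrophage markers, 10 were lower and 0 higher with a median of -0.89, and their sum was 3584 and 1760 FPKM. Lyz2 was the most abundant of them, Aif1 had the lowest ratio at -2.14, and Cd163 alone was above 0 at 0.30. All 6 mesothelial markers were higher (median 0.79), from Lrrn4 at 0.75 to Upk3b, the most abundant, at 1.07. Of 6 blood endothelial markers (median 0.33) Tie1 alone was past the fold at 0.50, and the most abundant, Pecam1, lay at 0.10. Of 3 mammary epithelial markers tested 2 were lower, each from under 10 reads. Relative to the median of the adipocyte markers, a scale chosen after the data were seen that puts 4.56% of all tested genes higher and 67.1% lower, the ratios were -3.24 for Ucp1, -1.45 for Cidea, 0.79 for Elovl3, 0.21 for Dio2 and 0.18 for Ppara. On that scale Elovl3 and Tbx1 were past the fold upward and Ucp1, Cidea, Ppargc1a, Prdm16 and Cox7a1 downward, and the median of the 10 genes was -0.37. Cox8b had a ratio of -0.22 on it. The part of cell makeup in these ratios was not tested.

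Upstream of the thermogenic genes, transcripts of the adrenergic and cAMP pathway were mostly within the fold. Of 15 genes tested, 1 was higher and 0 lower, with a median of 0.05. The counting interval lay above 0 for 7 of them and below 0 for 4. Signalling itself was not measured here. The one past the fold was Adrb3, the beta-3 adrenergic receptor through which noradrenaline acts on mouse adipocytes, at 27.04 FPKM in the fl/fl pool and 44.80 in the AD1KO pool (ratio 0.73, interval 0.62 to 0.83). Adrb3 is also 1 of the 12 adipocyte markers, and its ratio lies close to their median. Gnas, the stimulatory G protein subunit, was the most abundant gene of the list (708 and 766 FPKM, ratio 0.11), and Adcy3 had the lowest ratio, -0.39.

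Transcription factors that promote brown or beige fat were mostly within the fold, with 2 of 22 tested higher and 1 lower, and a median of 0.09. Rxrg, a partner of nuclear receptors, was the higher one above 1 FPKM at 8.45 and 13.68 FPKM (ratio 0.69). Foxc2 was past the fold at 0.47 and 0.83 FPKM (ratio 0.81). Irf4, a factor of the response to fasting and cold that lymphocytes and macrophages also express, was at 2.72 and 1.82 FPKM (ratio -0.58). Cebpa, a general adipocyte factor, was the most abundant at 205 and 260 FPKM (ratio 0.35). Among 11 repressors of the programme, 2 were higher and 1 lower, with a median of 0.26. Zfp423, which holds white adipocytes in the white state, was the highest of them at 6.52 and 11.00 FPKM (ratio 0.75), and Foxo1 was the other higher one at 0.58. Rbl1, a cell cycle regulator, was lower at -0.61, and Nr1h3, the liver X receptor alpha, was the most abundant at 67.31 and 76.00 FPKM.

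Of 13 brown fat markers tested, 3 were higher and 2 lower, with a median of 0.30. The higher ones were Mpzl2 (ratio 1.07), Kcnk3 (0.66) and Slc27a2 (0.66, with an interval that held 0). The lower ones were Epsti1, at 22.07 and 9.55 FPKM (ratio -1.21), which is also an interferon-responsive gene of immune cells, and Acot11, a thioesterase of brown fat, at 1.51 and 0.72 (ratio -1.06). Pdk4, the kinase that blocks glucose oxidation, was the most abundant at 25.43 and 31.39 FPKM. Of 12 beige fat markers, 2 were higher and 4 lower, with a median of 0.21. Slc36a2, an amino acid transporter on brown and beige cells, was at 122 and 177 FPKM (ratio 0.53), and the other higher one, Shox2, had 9 reads. The lower ones were Cd40 (ratio -1.90), Tnfrsf9 (-1.41), Sp100 (-0.82) and Cited1 (-0.74, with an interval that held 0). Cd40 and Tnfrsf9 are also receptors of immune cells and Sp100 is also interferon-responsive, and they went in the direction of the macrophage markers. Their part in these ratios was not tested.

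**Figure D4:**
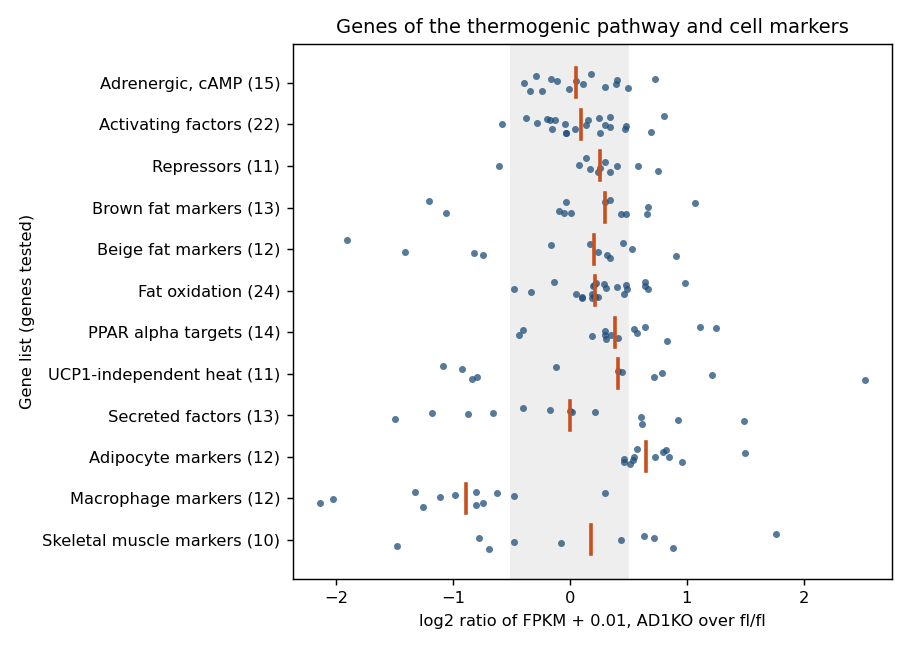
Log2 ratio of AD1KO over fl/fl (horizontal axis) for each tested gene (points) of 9 lists of thermogenic genes and 3 lists of cell markers (vertical axis, with the number tested), with the median of each list as an orange bar and the grey band at ratios within 0.5 of 0. The lists are centred between 0.00 and 0.42 except for adipocyte markers at 0.65 and macrophage markers at -0.89, and UCP1-independent heat and secreted factors spread to both sides of the band.

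Genes of fat oxidation and the mitochondria mostly had ratios slightly above 0. Of 24 tested, 4 were higher and 0 lower, and 21 had ratios above 0 where 45.3% of all tested genes did, with a median of 0.22 that became -0.43 relative to the adipocyte markers. The higher ones were Fabp3, a fatty acid carrier (ratio 0.98, 33 reads, interval holding 0), Acads (0.66), Cpt2 (0.64) and the lipid droplet protein Plin5 (0.64). Atp5b, a subunit of ATP synthase, was the most abundant at 729 and 845 FPKM (ratio 0.21), and Acsl5 had the lowest ratio, -0.48. The median of this list lies below that of the adipocyte markers, and the difference was not tested.

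Heat can also be made without UCP1, by futile cycling of creatine or calcium. Of 11 such genes tested, 4 were higher and 4 lower, with a median of 0.42 that became -0.45 with a minimum of 1 FPKM. The creatine genes split, with Ckb, the brain type creatine kinase, at 142 and 75.17 FPKM (ratio -0.92), Gatm, which makes the creatine precursor, at 11.31 and 5.34 (ratio -1.08), and the transporter Slc6a8 at 19.02 and 10.99 (ratio -0.79). Gamt, which completes creatine synthesis, went the other way at 45.31 and 78.09 FPKM (ratio 0.79). Ckmt1, a mitochondrial creatine kinase, had a ratio of 0.72 from 29 reads, and its interval held 0. Pm20d1, a secreted enzyme that makes uncoupling N-acyl amino acids, was at 1.32 and 3.08 FPKM (ratio 1.22, interval 0.83 to 1.62). Ryr1, a calcium release channel, was lower at -0.84. Its listed transcript length was 1364 bases, against 16813 for Ryr2, so the value may not stand for the whole transcript. Atp2a1 had a ratio of 2.52 from 7 reads, and its interval held 0.

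Of 13 secreted factors linked to thermogenic fat or its nerves, 4 were higher and 4 lower, with a median of 0.00. Bdnf, a neurotrophic factor, was at 0.54 FPKM in the fl/fl pool and 1.53 in the AD1KO pool (ratio 1.49, interval 0.92 to 2.06). Bmp4 (ratio 0.93), Nrg4 (0.62) and Vegfa (0.61) were also higher. Cxcl14, a chemokine released by brown fat, was at 18.25 and 6.46 FPKM (ratio -1.50), and Gdf15 (-1.17), Metrnl (-0.88) and Bmp7 (-0.66, with an interval that held 0) were also lower. Metrnl, which macrophages express as well, was at 48.45 and 26.41 FPKM. It was the most abundant of the list in fl/fl, and Vegfa was in AD1KO at 32.51 FPKM.

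The study chose genes for PCR in brown fat and in gonadal fat of mice with these genotypes and this diet, so these lists are not independent of its results. By PCR in replicate animals, the study reported Ppargc1a, Prdm16, Dio2, Klhl13, Ear2 and Tbx1 as raised in gonadal fat of AD1KO. In the pooled libraries Dio2 was higher, and Tbx1 was past the fold from 10 reads, with an interval that held 0. Prdm16 and Ppargc1a were within the fold, with intervals that held 0. Klhl13 was also within the fold at 8.65 and 11.85 FPKM (ratio 0.45, interval 0.28 to 0.63). So was Ear2, an eosinophil ribonuclease, at 67.39 and 76.05 FPKM (ratio 0.17, interval 0.03 to 0.32). The intervals of Klhl13 and Ear2 lay above 0, the direction of the PCR. Of the 6 brown fat genes, measured here in gonadal fat, 2 were higher (Elovl3 and Mpzl2), 2 were lower (Ucp1 and Cidea) and Ppargc1a and Ppargc1b were within the fold, with a median of -0.32.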

How the data were processed

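RNA of 4 female mice per group was pooled into 1 library per group, sequenced by the service provider on BGISEQ-500 and aligned to mm9. The aligner and the program that counted reads are not given in the sources used here. Expression was deposited by the authors as FPKM, with 0 written as 0.01, which was set back to 0 here. Columns of the authors' own fold changes, P-values and FDR were not used, and the RRBS samples were not analysed here.

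Ratios were taken on the log2(FPKM + 0.01) scale, which understates the change of low genes. With 1 library per group, no test was run. Reads were estimated as FPKM times transcript length less 117 bases times depth. The correction and the depths were the values that brought reads of short genes with under 6 reads closest to whole numbers. Within 0.15 of a whole read lay 81.7% of 438 such values in fl/fl and 80.8% of 416 in AD1KO. Estimated reads summed to 17783336 and 17542045, with a median of 571 over both libraries per tested gene. Intervals are Clopper-Pearson for ratios and Poisson for levels. Reads carried no molecular identifiers, so intervals and the floor of 3 reads cover counting error only.

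The genes and the gene lists were chosen with earlier results of these data known. Named are the 10 genes, their tested relatives, the genes the study measured by PCR, and for each other list the most abundant gene and those with the highest and lowest ratio at 1 FPKM or more. Other genes, which fall outside this rule, were named after their values were seen. Some list genes had no row with their symbol and were not analysed here, and 1 gene measured by PCR is not reported here. Gene positions are from GENCODE for mm9 and promoter windows from RefSeq for GRCm38.p6.

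Alternatives tried were scaling by upper quartile, median of ratios or the trimmed mean of M-values, pseudocounts of 0.1 and 1 FPKM, no minimum or 1 FPKM, a log2 threshold of 1, and the whole counting interval past 0.5. Scaling to adipocyte markers and ratios of reads plus 0.5 were added after the data were seen. Steps were tested on simulated data. Scripts ran in Python 3.11.15 with Matplotlib 3.10.9, pandas 2.3.3, SciPy 1.17.1 and NumPy 2.4.6.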

Additional observations from a re-analysis of the deposited data

How the results depend on the processing

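No paired analysis was possible because each group was a single pool of RNA, and no replicate could be left out. Against 4 higher and 2 lower thermogenic genes, a threshold of 1 gave 2 higher and 1 lower (5.75% and 8.95% of all tested genes), and a counting interval wholly past 0.5 gave 1 of each, as stricter calls do by construction. A pseudocount of 1 FPKM, which shrinks ratios of low genes, gave 1 higher gene. At this setting 6.09% of all tested genes were higher and 10.5% lower. A minimum of 1 FPKM gave 2 higher among 6 genes tested, with 10.1% of all tested genes higher and 16.3% lower. Upper quartile scaling gave 5 higher, with Cox8b at 0.52, where 17.6% of all tested genes were higher and 16.5% lower. Scaling to the adipocyte markers, added after the data were seen, shifted log2 ratios by -0.65 before the pseudocount and gave 2 higher, 5 lower and a median of -0.37 in place of 0.27. It also turned the median of Prdm16 and Mecom to -0.074. Over 7 alternatives the ratio ran from -3.24 to -1.98 for Ucp1, from -1.45 to -0.65 for Cidea and from 0.62 to 1.52 for Elovl3. The signs of these 3 ratios could not turn, since a pseudocount keeps the sign and the largest shift by scaling was -0.65. Dio2, Ppara, Tbx1 and Ppargc1a kept their signs as well, so a kept sign says little of a gene. The depth limits Tbx1, Ppargc1a, Elovl3 and Dio2 most, with 10, 46, 52 and 72 reads.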
